A study of Homo sapiens with 16 samples.

Results

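The genes described here were set apart in shScrambled, the line of the human colon adenocarcinoma cell line SW480 that carries a non-targeting shRNA. They were chosen by their values: the mean of shScrambled, in RPM plus 0.1, was at least 1.5 times the highest mean of the 5 other lines, or the lowest of these 5 means was at least 1.5 times that of shScrambled. RPM is the count divided by the sample's total count and multiplied by 1000000. Of 13358 protein-coding genes with a mean of at least 1 RPM in some line, 204 met the rule, or 1.53%. Among them, 154 were higher and 50 were lower in shScrambled. As the choice used shScrambled, the distance between it and any other line is given as a description, with no test.

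RNA-seq counts were read for 16 samples of 6 lines. Parental was unmodified SW480 (n = 2), and shScrambled carried the pLKO.1-puro vector with a non-mammalian shRNA (n = 2). The line shAjuba1 carried an shRNA to the coding region of AJUBA, and shAjuba2 one to a non-coding region (n = 3 each). Ajuba OE carried a lentiviral AJUBA construct, and Control the same construct with the AJUBA sequence excised (n = 3 each). All lines but Parental were transduced and selected with puromycin. The labels name 1 line for each construct, so an effect of the construct and a property of that line cannot be told apart. The paper calls the replicates technical, so p-values measure only the spread between these samples.

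Total counts ranged from 30132396 to 69684675 per sample. AJUBA was at 83.4 and 81.6 RPM in shScrambled, 88.8 to 91.6 RPM in Parental, 47.3 to 53.5 RPM in shAjuba1, 57.1 to 68.6 RPM in shAjuba2, 89.4 to 100.5 RPM in Control and 461.8 to 566.2 RPM in Ajuba OE. The samples numbered 2 of shAjuba2, Control and Ajuba OE had 18.5 to 21.2% of counts on mitochondrial genes and 1.31 to 2.14% on ribosomal protein genes. The other 13 samples had 9.66 to 17.2% and 2.65 to 4.30%, with shScrambled at 15.4 and 17.2% and at 3.20 and 2.86%. Without these 3 libraries the rule gave 148 higher and 69 lower genes, and 188 of the 204 were kept. All 7 colon epithelial markers were expressed in shScrambled, and summed to 4062 to 4203 RPM, within the 2901 to 7008 RPM of the other samples. Their median log2 difference between shScrambled and the other lines was -0.43, against 0.00 over all genes. KRT8 and KRT18 had their lowest line means in shScrambled. They were at 1930 RPM against 2170 to 3064 RPM, and at 1603 RPM against 1753 to 2594 RPM.

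An shRNA is cut in the cell to a small RNA that guides a silencing complex to mRNAs with a matching sequence. A scrambled shRNA is meant to match no transcript of the host, and a knockdown line is commonly read against it. A gene that differs in the scrambled line itself therefore appears with the opposite sign in every knockdown compared with that line. Small RNAs are also known to lower mRNAs through matches of a few bases, mostly in the 3′ untranslated region (UTR), which is why the 3′ UTRs of the genes were read.

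The 3′ UTRs of the 50 lower genes held a shared word of 7 letters, GAAGAGC, in 18 genes (36%), against 1576 of all 13358 genes (11.8%). It was picked after the values were seen, as the word of 16384 with the largest difference in share, 24.2 percentage points, so its share is a description. The next word, CCACCCT, was in 40% of the lower genes and 18.8% of all genes. The sites below, read from hg38, belong to carriers with a line mean of at least 20 RPM, and SKA2 and TULP3 were added after their values were seen. Each line gives 29 bases of the mRNA, 5′ to 3′, with the word in capitals:
ARPC3: tatacagaagagaGAAGAGCatgtcttta
SKA2: aaattctaacagaGAAGAGCttaattccg
ANKRD40: ctgcatcctatgaGAAGAGCacaaatatt
CCNYL1: aaaggaagattttGAAGAGCagtgttaat
TULP3: aaaacacacacacGAAGAGCaatagtttg
PDAP1: ggagatggggtaaGAAGAGCtttcatttg
SYK: tccattcatttcaGAAGAGCtacattgtg

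In ARPC3 the word lay at chr12:110435045-110435051 on the minus strand, in SKA2 at chr17:59112238-59112244 on the minus strand, and in ANKRD40 at chr17:50695021-50695027 on the minus strand. In CCNYL1 it was at chr2:207755584-207755590 on the plus strand, and in TULP3 at chr12:2939646-2939652 on the plus strand. The site of PDAP1 was chr7:99396365-99396371 on the minus strand, and that of SYK chr9:90898484-90898490 on the plus strand. ANKRD40 and SKA2 held the word 2 times, and TULP3 held it 3 times. The sequence of the scrambled shRNA was not used here, so its match to the word was not tested.

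The lower genes included genes of basic cell functions, here COX7C, ARPC3, SKA2 and SRP14. COX7C, a subunit of cytochrome c oxidase, was at 30.6 and 24.8 RPM in shScrambled and at a lowest, median and highest of 36.8, 88.6 and 140 RPM in the 14 other samples. Both shScrambled samples lay below all others, and the mean was 2.54 times lower than that of the nearest line, shAjuba2. ARPC3, a subunit of the Arp2/3 complex that branches actin filaments, was at 38.8 and 34.3 RPM against 45.2, 100 and 134 RPM. SKA2, part of the complex that ties kinetochores to spindle microtubules, was at 61.1 and 52.7 RPM against 88.1, 132 and 161 RPM.

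SRP14, a protein of the signal recognition particle, was at 71.1 and 62.3 RPM in shScrambled, and its lowest other sample, at 71.7 RPM, was the sample of shAjuba2 numbered 2. It was named after its values were seen. In COX7C and ARPC3 too the lowest of the other samples was that library, at 36.8 and 45.2 RPM, where the other samples of shAjuba2 were at 85.7 and 89.2 RPM for COX7C and at 100.0 and 108.6 RPM for ARPC3. That library also had the lowest share of ribosomal protein counts, 1.31%, a share that in shScrambled was within the range of the other samples. The part of this in the 2 values of shScrambled was not tested.

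ANKRD40 gave an even picture, with 33.7 RPM in both shScrambled samples and 56.0, 69.0 and 78.4 RPM as the lowest, median and highest of the others. CCNYL1, a cyclin Y-like protein, was at 19.2 and 20.2 RPM against 34.2, 41.0 and 49.3 RPM. TULP3, a protein of transport into cilia, was at 16.4 and 16.1 RPM against 27.9, 33.9 and 39.4 RPM. In these genes the groups did not overlap, and the 14 other samples stayed within a narrow range. PDAP1 was the most abundant of them, at 247 and 230 RPM against 293, 389 and 452 RPM. ZNF687, a zinc finger protein, was at 22.1 and 23.4 RPM against 32.2, 38.5 and 43.3 RPM.

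**Figure D1:**
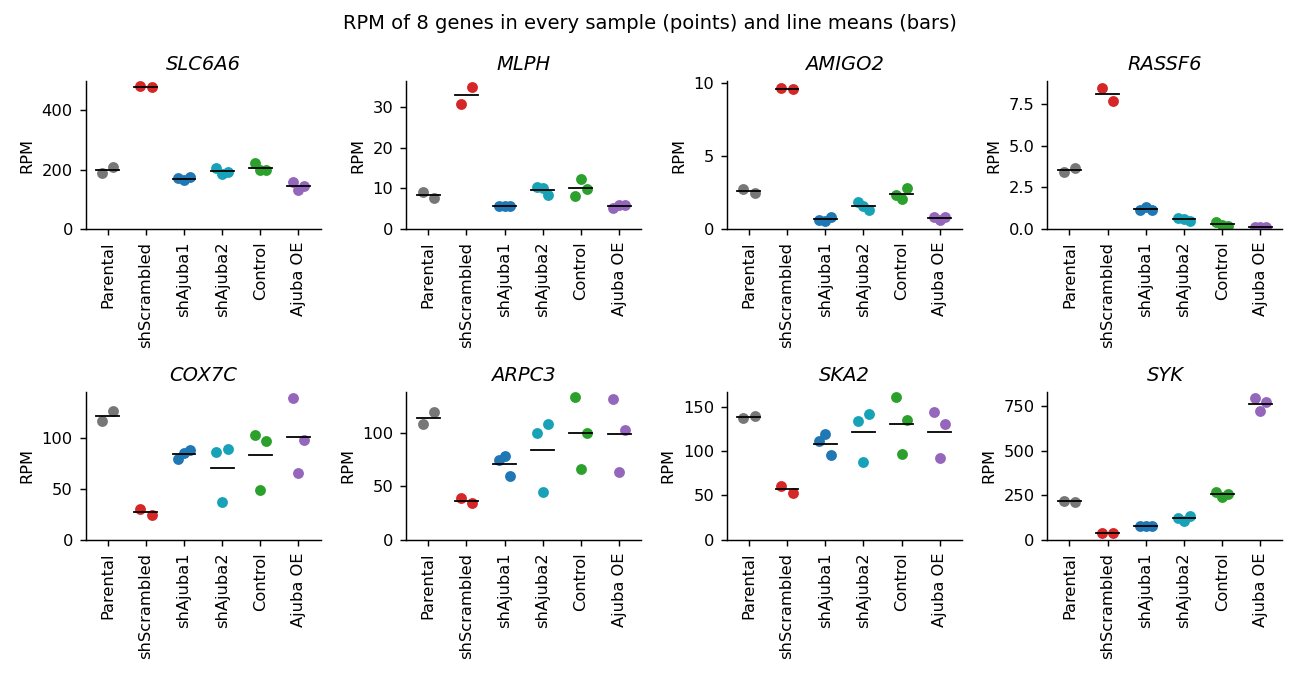
RPM (linear axes from 0) of 8 genes in each of 16 samples, by line, where points are samples and bars are line means. The upper 4 genes are higher and the lower 4 lower in shScrambled, and SYK also ranges from 75.6 to 792 RPM among the 14 other samples.

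The spread and level of the 18 lower genes with the word are given as a description, since the rule and the choice of the word used the same line means and genes. Among the 5 other lines, the highest mean was a median of 1.28 times the lowest for the carriers, 1.99 times for the lower genes without the word, 2.12 times for the higher genes and 1.45 times for all 13358 genes. The carriers were also abundant: of the 25 lower genes with a line mean of at least 20 RPM, 14 (56%) held the word, against 12.2% of all genes at that level. The median 3′ UTR length of the lower genes was 1308 bases, against 1286.5 bases over all genes. Genes with the word had longer UTRs, with a median of 3109 bases over all genes. Among the lower genes it was 2214.5 bases with the word and 856.5 bases without. Genes with and without the word were not matched for UTR length, so the 2 cannot be told apart here. Counted per kilobase of 3′ UTR, the word occurred 0.241 times in the lower genes, 0.0709 times in all genes and 0.0539 times in the higher genes. The higher genes held it in 17 of 154 UTRs (11%). In the coding part the word was in 15 of the 50 lower genes, against 26.6% of all genes.

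Genes beyond the 204 were also counted by the word, as a description without matching for 3′ UTR length or level. Of the 1541 genes with the word that did not meet the rule, 20.1% had their lowest line mean in shScrambled, against 14.9% of 11613 genes without it. Over all genes the shares lowest in a line, with and without the word, were 20.8 and 15% for shScrambled. They were 14.8 and 19.4% for shAjuba2, 23.4 and 22.2% for shAjuba1, 23.5 and 22.4% for Ajuba OE, 9.58 and 11.8% for Parental and 7.93 and 9.29% for Control. The median log2 difference between shScrambled and the other lines was -0.03 with the word and 0.00 without. When each sample was left out in turn, the share of lower genes with the word stayed between 30.3 and 39.3%, and it was 40.6% (28 of 69) without the 3 libraries of high mitochondrial share.

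**Figure D2:**
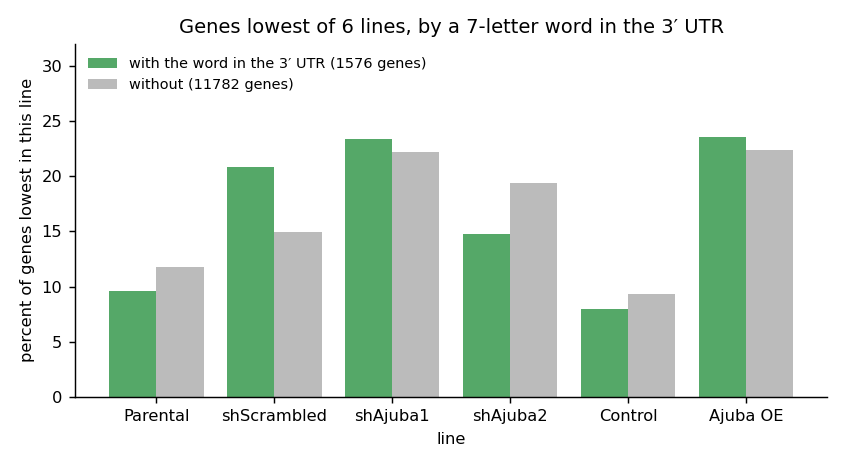
Percent of genes whose lowest line mean was in the line named on the horizontal axis, for 1576 genes with the 7-letter word in the 3′ UTR and 11782 without. The green bar exceeds the grey one by the most in shScrambled (20.8 against 15%) and falls below it in shAjuba2 (14.8 against 19.4%).

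SYK and ZAP70 encode paralogous tyrosine kinases that act downstream of immune receptors, and both were lower in shScrambled, SYK being a carrier of the word and ZAP70 not. SYK was at 37.5 and 36.7 RPM, against 75.6, 216 and 792 RPM in the others. ZAP70 was at 96.1 and 116 RPM against 156, 261 and 594 RPM. SYK was lowest among the other lines in shAjuba1 and highest in Ajuba OE, while ZAP70 was highest in shAjuba1.

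SYK also passed the test between the AJUBA constructs and controls other than shScrambled. Against Parental it fell by 1.51 ± 0.07 on the log2 scale (SE) in shAjuba1 (edgeR adjusted p = 1.26e-07) and by 0.88 ± 0.13 in shAjuba2 (edgeR adjusted p = 0.0160). Against Control it fell by 1.73 ± 0.09 in shAjuba1 (edgeR adjusted p = 1.71e-05) and by 1.1 ± 0.12 in shAjuba2 (edgeR adjusted p = 0.00310). In Ajuba OE it rose by 1.65 ± 0.10 against Control (edgeR adjusted p = 0.000204). In shScrambled SYK was below its level in either knockdown line, which the rule requires of a lower gene. AJUBA was at 83.4 and 81.6 RPM in shScrambled, and a relation of SYK to the AJUBA level was not tested there. ZAP70 rose by 1.00 ± 0.12 in shAjuba1 against Parental (edgeR adjusted p = 8.75e-05).

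Genes of the Wnt pathway were on both sides. ASCL2, a transcription factor of intestinal stem cells, was at 6.56 and 6.82 RPM in shScrambled, against 8.83, 16.4 and 47.1 RPM in the other samples. SP5, a transcription factor induced by Wnt signalling, was at 28.9 and 32 RPM against 37.4, 56.8 and 87.1 RPM. LGR5, a receptor for R-spondins on intestinal stem cells, named after its values were seen, was higher instead, at 1.43 and 1.65 RPM against 0.0251, 0.177 and 0.873 RPM. Of the 23 Wnt genes at 1 RPM or more, these 3 met the rule, beside 1.53% of all genes. The median difference of the list between shScrambled and the other lines was -0.29 on the log2 scale, against 0.00 over all genes. A list of ATF4 and unfolded protein stress genes, none of which met the rule, had -0.33. The histones, with 1 lower gene, had -0.62. In Ajuba OE against Control, ASCL2 rose by 1.35 ± 0.12 (edgeR adjusted p = 0.00109) and SP5 by 0.70 ± 0.14 (edgeR adjusted p = 0.0313).

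JAG1, a Notch ligand, was at 15.2 and 16 RPM in shScrambled against 26.3, 35.1 and 102 RPM elsewhere, and it rose in shAjuba1 by 1.47 ± 0.09 against Parental (edgeR adjusted p = 6.20e-07). PLA2G4D, a cytosolic phospholipase A2, was at 3.59 and 4.23 RPM against 9.59, 12.1 and 21.3 RPM. TBXT, the transcription factor brachyury, was at 8.97 and 9.20 RPM against 15.6, 21.3 and 29.9 RPM. All 3 were lower than in every other sample. CHI3L1, a secreted chitinase-like protein, was at 0.987 and 1.07 RPM against 2.06, 3.33 and 5.96 RPM.

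The remaining lower genes named by family were of low to moderate level. KCNJ10, an inward rectifier potassium channel, was at 6.72 and 7.99 RPM in shScrambled against 11.6 to 35.0 RPM. Its neighbour KCNJ9 on chromosome 1 was also a lower gene, as were the neighbouring keratins KRT37 and KRT32 on chromosome 17. The collagen COL26A1 was at 1.59 and 1.47 RPM against 2.18 to 6.32 RPM, and the histone H2BC26 at 3.10 and 2.31 RPM against 4.12 to 9.89 RPM. ZNF385C was at 2.08 and 1.97 RPM against 2.94 to 12.0 RPM. In 46 of the 50 genes both shScrambled samples were below all 14 others, a pattern found in 4.12% of all genes, and the rule makes it likely. The exceptions were SLPI, KRT37, COL5A3 and OTOP1.

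The higher genes were more numerous and of lower level. Their median highest line mean was 5.69 RPM, against 18.9 RPM for the lower genes and 33.7 RPM over all 13358 genes, and 31 of the 154 stayed under 2 RPM. In 153 of them both shScrambled samples lay above all 14 others, against 5.71% of all genes, and CST6 was the exception. The median fold over the nearest line was 1.81 for the higher genes, and 45 reached 2-fold. For the lower genes it was 1.74, and 7 reached 2-fold. The largest were 4.24-fold higher in GLIS3, a zinc finger transcription factor, and 3.40-fold lower in MYH15, a myosin heavy chain, both named after their values were seen.

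**Figure D3:**
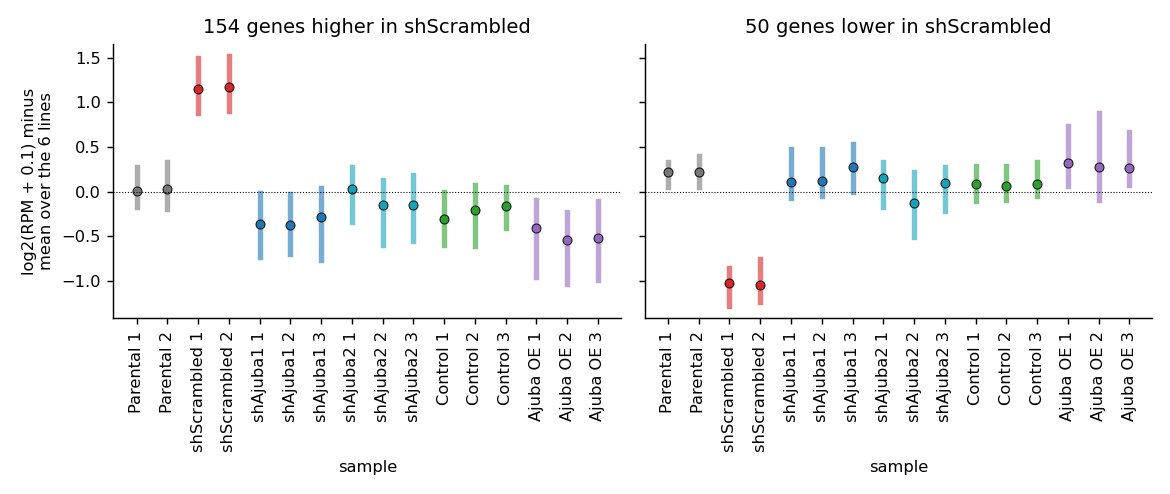
Log2(RPM + 0.1) of each gene minus its mean over the 6 lines, shown per sample as the median (point) and quartiles (bar) over the 154 higher genes (left) and 50 lower genes (right). The 2 shScrambled samples have medians of 1.15 and 1.17 on the left and -1.02 and -1.05 on the right, which the choice of genes fixes, and Ajuba OE is lowest on the left, with medians from -0.54 to -0.41.

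AMIGO2, an adhesion molecule with leucine-rich repeats, was at 9.66 and 9.54 RPM in shScrambled, against a lowest, median and highest of 0.564, 1.43 and 2.80 RPM in the others. Its mean was 3.62 times that of the nearest line. COL4A1, a basement membrane collagen, was at 7.05 and 7.29 RPM against 0.459, 1.48 and 2.99 RPM. EFNA5, an ephrin ligand of Eph receptors, was at 6.72 and 6.66 RPM against 0.697, 2.41 and 3.41 RPM. Both samples stood apart in all 3 genes.

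IGFBP5, which binds insulin-like growth factors, was at 8.15 and 6.66 RPM against 0.0754, 1.15 and 2.84 RPM. TLR4, the receptor for bacterial lipopolysaccharide, was at 93.9 and 85.3 RPM against 11.1, 38.5 and 52.0 RPM. FGF13, an intracellular relative of the fibroblast growth factors, was at 14.6 and 14.7 RPM against 0.670, 7.30 and 10.1 RPM. The lowest samples of TLR4 and FGF13 were those of shAjuba1, in which they fell against Parental by 1.81 ± 0.10 and 3.49 ± 0.16 on the log2 scale (edgeR adjusted p = 4.69e-07 and 1.37e-07). PLXNC1, a semaphorin receptor, was at 7.54 and 7.91 RPM against 4.03 to 5.40 RPM.

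Among transporters, 6 of 252 solute carriers at 1 RPM or more were higher and 0 lower, beside 154 and 50 of all 13358 genes. SLC6A6, the taurine transporter, was at 481 and 478 RPM in shScrambled, against 133, 188 and 224 RPM in the others, 2.32 times the mean of the nearest line. SLC37A2, a sugar phosphate transporter, was at 16.8 and 16.6 RPM against 4.95 to 11 RPM. SLC2A12, a glucose transporter, was at 5.76 and 6.02 RPM against 1.31 to 4.24 RPM. The remaining 3 were SLC2A14, SLC39A5 and SLC16A7. In all 6 both shScrambled samples were above every other sample, as in 153 of the 154 higher genes, which the rule makes likely.

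Scaffold proteins and enzymes were also among the higher genes. AKAP12, a scaffold for protein kinase A, was the most abundant, at 1225 and 1233 RPM against 311, 650 and 902 RPM. MLPH, or melanophilin, which links vesicles to myosin, was at 30.9 and 34.9 RPM against 5.21, 7.91 and 12.2 RPM. CORO6, an actin-binding coronin, was at 44.8 and 56.3 RPM against 8.11, 15.4 and 26.6 RPM. ALDH1A3, which makes retinoic acid and is 1 of the enzymes behind aldehyde dehydrogenase activity assays, was at 496 and 500 RPM against 139, 261 and 342 RPM.

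MGAM2, a maltase-glucoamylase, was at 5.49 and 6.10 RPM against 0.193, 1.25 and 2.18 RPM. KRTAP3-1, a keratin-associated protein of hair, was at 18.6 and 14.8 RPM against 2.25, 4.97 and 7.86 RPM. HOXA13, the HOX gene of the hindgut, was at 9.24 and 8.84 RPM against 2.66, 4.62 and 5.33 RPM.

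Of 27 interferon response genes at 1 RPM or more, 3 were higher and 0 lower, beside 154 and 50 of all 13358 genes. OAS1, a sensor of double-stranded RNA, was at 5.16 and 5.13 RPM against 1.19, 2.59 and 3.57 RPM. MX2, an antiviral GTPase, was at 10.9 and 9.42 RPM against 3.89, 4.91 and 7.52 RPM. IFIT2 was at 1.34 and 1.41 RPM against 0.0552, 0.538 and 1.07 RPM. The median difference of the list was 0.20 on the log2 scale, against 0.00 over all genes. The YAP and TAZ targets, without a member, had 0.18. The 15 genes for sensors of foreign DNA and RNA held no member and had a median of 0.06.

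VWF, the von Willebrand factor of endothelial cells, was a higher gene at 4.96 and 5.29 RPM against 1.89 to 2.79 RPM. The other 2 endothelial markers, PECAM1 and CDH5, had means of 0.0771 and 0.0137 RPM in shScrambled, and the 3 summed to 5.05 to 5.39 RPM there and 2.24 to 3.06 RPM elsewhere. The 5 fibroblast markers summed to 22.1 to 22.5 RPM in shScrambled, within the 6.21 to 37.6 RPM of the other samples, with DCN at 0. The 4 leukocyte markers summed to 1.45 to 1.62 RPM, within 1.13 to 3.00 RPM, with PTPRC at 0. No gene of the YAP and TAZ target, epithelial junction, p53, cell cycle, ATF4, hypoxia, NF-kB, ERK, MHC class I or small RNA machinery lists met the rule. The median log2 differences of these lists still ran from -0.33 (ATF4) and -0.25 (NF-kB) to 0.18 (YAP and TAZ targets).

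A group of 18 higher genes shared an order of the lines that was seen after the values were known. In these the mean of Parental was at least 2 times that of shAjuba2, of Control and of Ajuba OE, an order found in 11.7% of the higher genes and in 0.284% of all genes (38 genes). RASSF6, a RAS association domain protein, was at 8.45 and 7.69 RPM in shScrambled, 3.44 and 3.64 RPM in Parental and 1.13 to 1.33 RPM in shAjuba1. It was at 0.514 to 0.645 RPM in shAjuba2, 0.205 to 0.437 RPM in Control and 0.101 to 0.144 RPM in Ajuba OE. The levels fell in steps, and no 2 lines overlapped.

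The same order of levels, shScrambled above Parental and Parental above the rest, was seen in POU2AF1, a coactivator of B cells. Its means were 5.96 RPM in shScrambled, 3.57 RPM in Parental, 2.24 RPM in shAjuba1, and 0.352 to 0.829 RPM in the other 3 lines. PHYHIPL had means of 4.16, 2.41 and 0.890 RPM in the same 3 lines and 0 to 0.117 RPM in the rest. GJA1, the gap junction protein connexin 43, had 1.68, 0.940 and 0.637 RPM, and 0 to 0.0325 RPM in the rest. GJA1 was named after its values were seen. Other members of the group included MLC1, NAALADL1, SLC16A7, CSRNP3, HGD, POF1B, KLRC2, AKR1C3, LRATD1, LGR5, SCN1A, ABCC2 and CACNA2D1. In a bulk sample, fewer cells with the transcript and less transcript per cell cannot be told apart.

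The comparison of Control with Parental, which does not involve shScrambled, had few calls and many of these genes. With edgeR at an adjusted p under 0.05, 0.37% of 21644 genes were called, 0.0508% higher and 0.319% lower. Of the 154 higher genes, 152 were tested and 13 were called, all lower in Control by at least 2-fold, and they made up 16.2% of the 80 called genes. Of the 50 lower genes, all tested, 0 were called by edgeR, where 7 had an unadjusted p under 0.05 and DESeq2 called 2. RASSF6 fell by 3.57 ± 0.26 on the log2 scale (edgeR adjusted p = 0.00346), and PHYHIPL fell by 4.31 ± 0.44 (edgeR adjusted p = 0.0151). CCND2, cyclin D2, fell by 2.03 ± 0.16 (edgeR adjusted p = 0.00390), from 19.0 and 17.3 RPM to 3.62 to 5.02 RPM, and was at 35.1 and 33.1 RPM in shScrambled.

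COL4A1 fell by 1.38 ± 0.18 between Parental and Control (edgeR adjusted p = 0.0405), and POU2AF1 by 2.55 ± 0.35 (edgeR adjusted p = 0.0420). Other called genes included LRATD1, POU3F2, CSRNP3, GJA1, CACNA2D1, ESRRB and POF1B, and these and CCND2 were named after their values were seen. The count of 13 rested on single libraries. It was 2 without either Parental sample, 7 without Control 1, 34 without Control 2 and 3 without Control 3. DESeq2 called 25 and the fit with a replicate block 26, beside 2.17 and 1.47% of all genes.

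In shAjuba1 against Parental, 150 of the 154 higher genes were tested and 84 were called, 76 lower and 8 higher, where 20.5% of all genes were lower and 17.6% higher. That was 49.4% of the higher genes called lower and 5.19% called higher, with a median log2 fold change of -0.49 against 0.01 over all genes tested. AMIGO2 fell by 1.96 ± 0.20 (edgeR adjusted p = 2.09e-05), and AKAP12 fell by 0.85 ± 0.08 (edgeR adjusted p = 9.52e-06). CSMD2, a large membrane protein with CUB and sushi domains, went the other way and rose by 3.28 ± 0.21 (edgeR adjusted p = 9.71e-07). Its level in shScrambled was 6.94 and 7.87 RPM, against 0.172 to 5.24 RPM elsewhere.

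Of the 50 lower genes, all tested, 27 were called in shAjuba1 against Parental, 12 higher and 15 lower, and their median was -0.00. Of all genes tested there, 38.1% were called, 17.6% higher and 20.5% lower. Of the 18 carriers of the word, 9 were called, 2 higher and 7 lower. COX7C fell by 0.57 ± 0.08 (edgeR adjusted p = 0.000232) and ARPC3 by 0.71 ± 0.12 (edgeR adjusted p = 0.000641). Of the 32 lower genes without the word, 18 were called, 10 higher and 8 lower. In shAjuba1 against Control the carriers differed, with 5 called, 4 higher and 1 lower, where 12.1% of all genes were higher and 13.1% lower. COX7C (0.00 on the log2 scale) and ARPC3 (-0.50) were not called there. Against Parental, COL5A3, a fibrillar collagen without the word, rose by 2.14 ± 0.17 (edgeR adjusted p = 4.81e-06). Higher and lower genes together gave 111 calls, and 69 without Parental 2.

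In shAjuba2 against Parental, 153 of the 154 higher genes were tested and 36 were called, 31 lower (20.1%) and 5 higher (3.25%), beside 3.88% and 4.26% of all genes. PHYHIPL fell by 4.71 ± 0.26 (edgeR adjusted p = 0.00114), RASSF6 by 2.66 ± 0.19 (edgeR adjusted p = 0.00188) and POU2AF1 by 3.39 ± 0.26 (edgeR adjusted p = 0.00250). Of the 50 lower genes, 11 were called, 3 higher and 8 lower. OTOP1, a proton channel, fell by 1.90 ± 0.27 (edgeR adjusted p = 0.0137). The 47 calls in all became 6 without Parental 1, 5 without Parental 2 and 7 without shAjuba2 1.

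**Figure D4:**
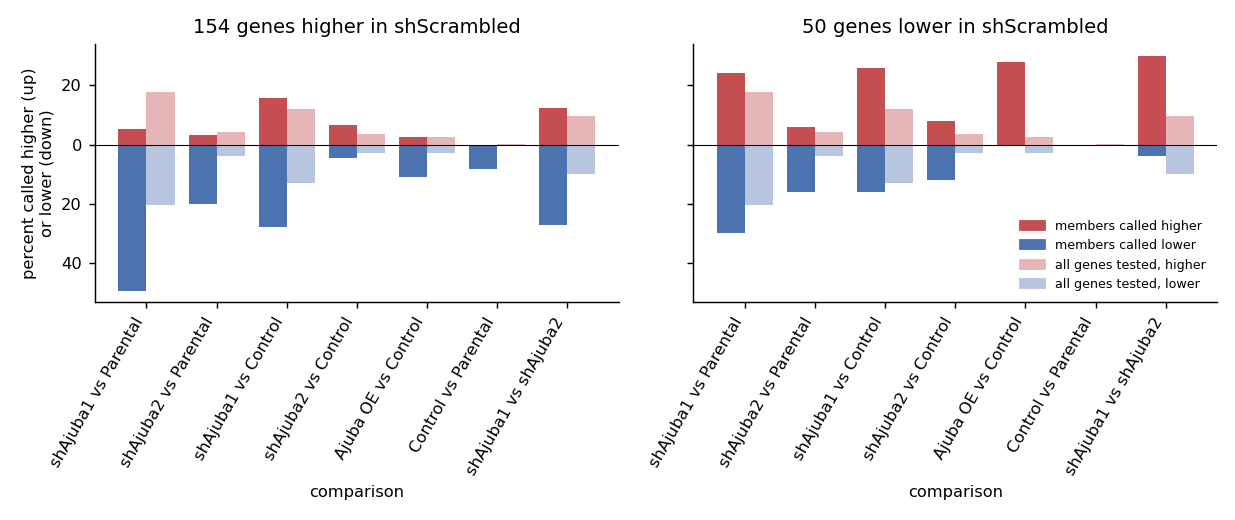
Percent of the 154 higher genes (left) and of the 50 lower genes (right) called higher (upward bars) or lower (downward bars) by edgeR in the 7 comparisons without shScrambled, beside the percent of all genes tested (pale bars). In shAjuba1 against Parental 49.4% of the higher genes are called lower, beside 20.5% of all genes, and in Ajuba OE against Control 28% of the lower genes are called higher, beside 2.39%.

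In Ajuba OE against Control, most genes set apart did not pass the test. Of the 154 higher genes 137 were tested and 21 were called, 17 lower (11%) and 4 higher (2.60%), where 5.43% of all genes were called, 3.03% lower and 2.39% higher. All 14 called genes of the 50 lower ones were higher in Ajuba OE (28%). IGFBP5 fell by 3.72 ± 0.34 (edgeR adjusted p = 0.00109), AMIGO2 by 1.57 ± 0.20 (edgeR adjusted p = 0.00494) and EFNA5 by 1.48 ± 0.21 (edgeR adjusted p = 0.00675). SPTSSB, a subunit of serine palmitoyltransferase, rose by 2.26 ± 0.21 (edgeR adjusted p = 0.00121), as did SYK and ASCL2 above. The 35 calls were 19 without Control 1, 21 without Control 2, 14 without Control 3, 17 without Ajuba OE 1 and 22 without Ajuba OE 3. In these runs 1.89 to 3.50% of all genes were called.

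Against Control, shAjuba1 had 67 of 147 tested higher genes called, 24 higher and 43 lower, where 12.1% of all genes were higher and 13.1% lower. Of the 50 lower genes, 13 were higher and 8 lower. In shAjuba2 against Control, 143 of the higher genes were tested and 17 called, 10 higher and 7 lower, where 6.15% of all genes were called, 3.43% higher and 2.72% lower. Of the lower genes, 4 were higher and 6 lower, and ASCL2 and SYK were among the 6. Same-numbered samples of these 2 lines deviated together, and in the fit paired by replicate number 56 of the genes were called in place of 27. The share of all genes called rose as well, from 6.15% to 25.3%. With 1 library left out the 27 calls became 12 without shAjuba2 1, 14 without shAjuba2 3, 13 without Control 1 and 6 without Control 3. In these runs 1.23 to 2.76% of all genes were called.

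Between the knockdown lines, 42 of the 151 higher genes tested were lower and 19 higher in shAjuba1 than in shAjuba2, where 19.6% of all genes were called, 10.1% lower and 9.47% higher. Of the 50 lower genes, 15 were higher and 2 lower in shAjuba1. PHYHIPL was 3.25 ± 0.33 higher on the log2 scale (edgeR adjusted p = 0.000209), and AKAP12 fell by 1.27 ± 0.14 (edgeR adjusted p = 0.000377).

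Compared with shScrambled itself, the comparison that the study made for its knockdown lines, the genes appeared as calls because the rule used that difference. In shAjuba1, 154 of 154 higher genes were called lower and 48 of 50 lower genes higher, where 20.2% of all genes were lower and 18.2% higher. In shAjuba2, 127 were called lower and 29 higher, where 7.63% of all genes were called, 4.44% lower and 3.19% higher. The higher genes were 7.41% and the lower genes 1.69% of all 1713 genes called there, and 1.90% and 0.592% of the 8103 called in shAjuba1. In shScrambled against Parental, 153 and 49 were called in the direction of the rule, where 15% of all genes were higher and 15.6% lower. Against Control, 137 and 40 were, where 5.8% of all genes were called, 3.65% higher and 2.15% lower.

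The number of genes set apart differed widely when the rule was applied to the other lines. It gave 609 genes for shAjuba1 (264 higher, 345 lower), 525 for Ajuba OE (113 and 412), 241 for shAjuba2 (160 and 81), 16 for Parental (8 and 8) and 7 for Control (3 and 4). So shScrambled, with 204, stood between shAjuba2 and Parental. The number of samples per line was 2 or 3 and was not equal, and these counts were not tested against each other.

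**Figure D5:**
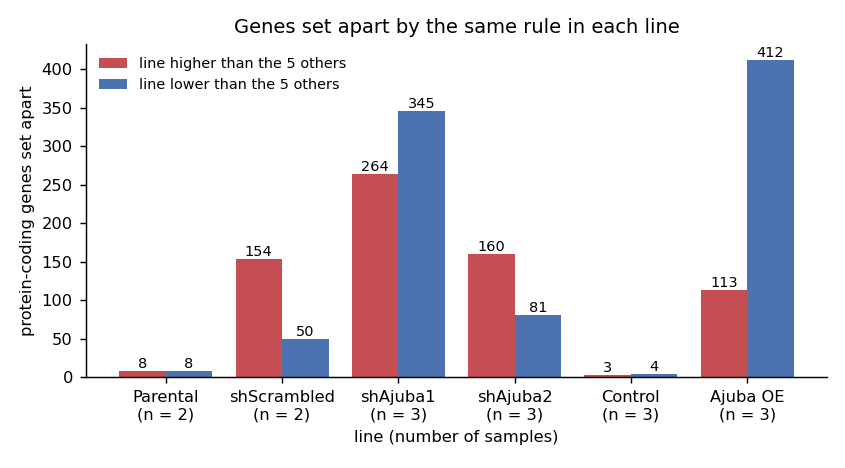
Number of protein-coding genes that the rule sets apart in each of the 6 lines, higher (red) or lower (blue) than the 5 others. The line shScrambled has 154 and 50, against 8 and 8 in Parental and 3 and 4 in Control.

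For 56 of the higher genes the nearest line was Parental, for 45 shAjuba2, for 24 Control, for 15 shAjuba1 and for 14 Ajuba OE. The lowest line was Ajuba OE in 65 and shAjuba1 in 51 of them. For the lower genes the nearest line was shAjuba2 in 18, and the highest was Ajuba OE in 22. At the threshold, MGST1 (10.4 against 6.90 RPM, 1.50-fold) and CPNE8 (6.36 against 4.19 RPM, 1.51-fold) were just inside and ACOXL and TMEM229B just outside, at 1.50-fold each. Of the lower genes, DHRS2 and FAM234B were just inside, at 1.51-fold each, and CDCA7 and H2AC14 just outside, at 1.50-fold each.

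The genes lay on 23 chromosomes, from 0.446% of the eligible genes of chromosome 14 to 2.77% of those of chromosome 12. There were 11 runs of genes of like direction with starts less than 500 kb apart, and 2 of these held 3 genes. In 1 run, at chr1:162069691-162386812, NOS1AP was at 10.1 and 9.10 RPM in shScrambled against 2.49 to 5.32 RPM, C1orf226 at 14.2 and 14.4 RPM against 4.48 to 9.20 RPM, and SPATA46 at 2.50 and 3.04 RPM against 0.226 to 1.47 RPM. In the other run, at chr11:66012008-66049161, CATSPER1, a calcium channel subunit of sperm, was at 8.67 and 9.72 RPM against 2.92 to 5.54 RPM, and GAL3ST3 at 1.12 and 1.25 RPM against 0.112 to 0.556 RPM. CST6, a cystatin, was at 3.26 and 3.66 RPM, and its highest other sample was at 3.27 RPM. An annotated gene on the opposite strand overlapped 97 of the higher and 25 of the lower genes, and 1 on the same strand overlapped 53 and 16. The strand setting of the counting was not given in the sources used here, so reads of such pairs may not be separable.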

How the data were processed

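The values deposited by the authors are counts per gene, not normalized, for 16 samples, from stranded mRNA libraries with paired reads of 50 bases aligned to hg38 with HISAT2 and counted with featureCounts. Versions were not given in the sources used here. RPM was the count divided by the total of the sample, times 1000000. Genes, strands and 3′ UTRs (Ensembl canonical transcript) were taken from GENCODE release 44, in which 56434 of 66023 identifiers were found, 19577 of them protein-coding. Some genes and sequences are not reported here.

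The members and lists were chosen with earlier results of these data known. Genes were named by rank of distance, by RPM per kilobase, by list, at the threshold, in runs, or by the smallest adjusted p-value of the knockdown lines against Parental.

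Counts were fitted with edgeR 4.0.16 in R 4.3.3 (filterByExpr, TMM, two-sided quasi-likelihood test) on the samples of both lines compared. P-values were adjusted by Benjamini-Hochberg over all genes tested, with a threshold of 0.05. DESeq2 1.42.0 was an alternative. Scripts were tested on simulated data. The word in the UTRs, the order of lines in 18 genes and the fits without 3 libraries were added after the data were seen. Same-numbered samples, by the labels, had deviations from their line means that correlated at 0.176, 0.569 and 0.237 between shAjuba2 and Control. Between Ajuba OE and Control the values were 0.166, 0.618 and -0.045. The highest value of each was for the samples numbered 2, which had the high mitochondrial share. All p-values printed here came from fits without pairing, also for shAjuba2 against Control, and the fit with a replicate block was an alternative.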

Additional observations from a re-analysis of the deposited data

Results flagged for a closer look

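The effects of shAjuba1 and shAjuba2 differed in 22 of the 56 tested genes named by rule, by edgeR's test of the difference between the knockdown lines (adjusted p under 0.05, where 19.6% of all genes were called). These values are log2 fold changes of shAjuba1 over shAjuba2. Among genes higher in shScrambled, shAjuba1 was below shAjuba2 in FGF13 (-2.68), EFNA5 (-1.73), TLR4 (-1.65), AKAP12 (-1.27), OAS1 (-1.23), IGFBP5 (-1.18), AMIGO2 (-1.17), MLPH (-0.70), COL4A1 (-0.68) and KRTAP3-1 (-0.54). It was above in PHYHIPL (3.25), POU2AF1 (2.71), CSMD2 (2.62) and RASSF6 (1.09). Among genes lower in shScrambled, it was above in COL5A3 (1.48), OTOP1 (1.36), ZNF385C (1.09), CHI3L1 (1.05), COL26A1 (0.94) and JAG1 (0.91), and below in H2BC26 (-0.78) and SYK (-0.61). Of the 22, 10 were among the 11 genes named for their smallest p in a knockdown line against Parental, a choice that used the same knockdown samples, and 12 were among the 45 other genes (26.7%).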

How the results depend on the processing

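No fold change of a named gene reversed in direction under any alternative run, among the named genes called in the main fit of that comparison. Fold changes of named genes that were not called were not checked for this. Of the values of single named genes under these alternatives, 2229 kept their call or stayed within the spread of the shScrambled samples, 244 kept their direction but no longer passed the test, and 124 distances to the nearest line moved by more than that spread. The count of higher genes fell from 154 to 45 at a ratio of 2 and to 83 at a minimum of 5 RPM, and that of lower genes fell from 50 to 28 with a pseudocount of 1 and to 7 at a ratio of 2, as these settings are stricter by construction. With TMM, 197 of the 204 genes were kept. At a ratio of 2 the word was in 2 lower genes, and in 28 without the 3 libraries of high mitochondrial share. Leaving out each sample in turn gave 151 to 169 higher and 42 to 66 lower genes, and 15 to 24 lower genes with the word. From either shScrambled sample alone, 181 and 182 of the genes were kept.

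With edgeR on all 16 samples, the calls were 46 in shAjuba2 against Control (27 before), 60 in Ajuba OE against Control (35 before) and 29 in Control against Parental (13 before). In that last comparison they were 38 with every gene of at least 1 count, 25 with DESeq2 and 34 without Control 2. With the replicate number as a block they were 56, 79 and 26 in the same 3 comparisons. For Ajuba OE and for Parental the numbers were not shown to pair the samples. The cause of these differences was not tested. Leaving out each sample in turn gave 69 to 119 calls in shAjuba1 against Parental, 5 to 70 in shAjuba2 against Parental, 66 to 97 in shAjuba1 against Control, 6 to 27 in shAjuba2 against Control, 14 to 26 in Ajuba OE against Control, 2 to 34 in Control against Parental and 60 to 94 in shAjuba1 against shAjuba2. The share of all genes called varied in these runs too, from 1.23 to 5.63% in shAjuba2 against Control and 1.89 to 4.57% in Ajuba OE against Control. It ran from 14.55 to 35.8% in shAjuba1 against Control and from 9.83 to 26.9% in shAjuba1 against shAjuba2. Genes under 2 RPM had few counts, and depth limits them most.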
